A study of Mus musculus with 8 samples.

Results

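Leucine-rich repeat neuronal membrane proteins are adhesion molecules and co-receptors whose outer part is built of repeated leucine-rich segments, and 36 of their genes were followed here in the cortex of mouse pups with and without a Bcl6 mutation. The genes were Tpbg, 4 Lrrtm, 3 Flrt, 6 Slitrk, 3 Lingo, 3 Lrrn, 3 Lrrc4, 3 Lrig, 5 Lrfn, 2 Elfn and 3 Amigo genes, out of 19938 genes with a probe set that names only that gene. All 36 had such a probe set, and 2 genes had more than 1, of which the brighter on average was used. The group was chosen by a measured value: Tpbg had passed the threshold between genotypes in these same arrays, and the other 35 genes were listed as its relatives in structure. The difference of Tpbg is therefore a description and supports nothing by itself.

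Total RNA came from layers II-IV of the neocortex, cut out by laser microdissection from pups at postnatal day 5, and each pup's RNA was measured on an Affymetrix Mouse Gene 1.0 ST array of its own. The mutant group held 4 pups with both Bcl6 alleles floxed and 1 Nex allele carrying Cre (Bcl6 flox/flox with Nex Cre/+). The control group held 4 pups with the same floxed Bcl6 alleles and no Cre (Bcl6 flox/flox with Nex +/+). Nex is another name of Neurod6, whose locus is active in excitatory neurons of the cortex once they stop dividing, so Cre is made in those neurons and other cells of the layers keep their Bcl6. Floxed Bcl6 is shared by both groups, while the targeting of Bcl6 and the altered Nex copy come together in the mutants and cannot be told apart.

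Many of these proteins sit at synapses. The extracellular repeats bind a partner on the facing cell, such as neurexins, latrophilins or receptor tyrosine phosphatases, and so help a synapse form or settle. Others act on the same cell as brakes or partners of growth factor receptors, ion channels or the receptors that restrain axon growth. In the cortex of the first postnatal week, axons are still branching and most synapses are yet to form.

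The promoters of Tpbg are shown because it is the gene by which the group was chosen. Sequences are RefSeq's on GRCm38.p6, 5′ to 3′ on the gene's own strand, each 300 bases from 250 before to 50 after an annotated start, with the bases from the start onward in capitals.
Tpbg (window 1, chr9:85842130-85842429, plus strand): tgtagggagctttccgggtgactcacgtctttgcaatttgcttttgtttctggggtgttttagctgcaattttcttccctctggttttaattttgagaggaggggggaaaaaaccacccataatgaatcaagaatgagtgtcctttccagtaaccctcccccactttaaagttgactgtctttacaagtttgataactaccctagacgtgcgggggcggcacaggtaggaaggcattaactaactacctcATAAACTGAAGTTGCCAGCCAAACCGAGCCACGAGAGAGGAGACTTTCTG
Tpbg (window 2, chr9:85842602-85842901, plus strand): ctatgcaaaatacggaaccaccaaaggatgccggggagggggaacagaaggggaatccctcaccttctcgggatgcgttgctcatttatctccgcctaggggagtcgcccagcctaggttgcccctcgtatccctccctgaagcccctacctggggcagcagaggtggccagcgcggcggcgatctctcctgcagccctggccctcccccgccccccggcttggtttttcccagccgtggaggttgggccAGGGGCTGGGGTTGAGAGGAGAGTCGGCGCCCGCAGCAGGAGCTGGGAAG

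Bcl6 is a transcriptional repressor whose known site resembles the palindrome TTCNNNGAA, with TTCCTAGAA as a close form, and both were searched for on both strands. Every TTCCTAGAA is also a TTCNNNGAA. Neither Tpbg window held either motif. Windows were given for 30 of the 36 members, 36 in all, and 4 of these windows held TTCNNNGAA, or 11.1%, against 8.3% of all 32851 windows in the table. TTCCTAGAA was in 0 member windows, against 0.411% of all. The 4 matches, in Elfn1, Lingo1, Lrfn5 and Lrrtm3, are shown with the match in capitals, as those letters and not as sites, since no binding was measured.
Elfn1 (around the match, chr5:139907713-139907751, plus strand): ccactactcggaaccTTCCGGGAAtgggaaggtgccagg
Lingo1 (around the match, chr9:56635789-56635827, minus strand): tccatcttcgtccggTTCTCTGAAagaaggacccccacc
Lrfn5 (around the match, chr12:61522960-61522998, plus strand): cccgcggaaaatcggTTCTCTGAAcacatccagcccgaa
Lrrtm3 (around the match, chr10:64090268-64090306, minus strand): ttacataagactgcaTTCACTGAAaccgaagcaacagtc

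None of these 4 genes passed the threshold between genotypes, and their differences are given with their families. The first Tpbg window held 46.0% G and C and the second 65.7%, and the member windows spanned 26.3% to 83.3%.

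The arrays were alike in median and in correlation. Array medians lay between 4.94 and 5.01 (log2) and correlations between arrays between 0.9904 and 0.9939. Bcl6 itself read 6.78 ± 0.14 (log2) in arrays labelled mutant and 6.40 ± 0.18 in those labelled control (SD, n = 4 each). Its signal was thus higher in mutants, by 0.37 ± 0.10 (SE, limma adjusted p 0.655), and the groups did not overlap. Whether its probes lie inside the deletion is not known here, so this reading checks nothing, and "mutant" below means the arrays so labelled, on which every direction rests. Neurod6 read 8.83 ± 0.17 in mutants and 9.22 ± 0.13 in controls. The female-specific Xist RNA was high in mutant replicates 1 and 4 (9.78 and 9.76), against 2.64 to 3.41 in the other 6 arrays. Defining markers of layers II-IV (Cux1, Cux2, Rorb, Lhx2 and Rasgrf2) averaged 9.32 to 9.62 in mutant arrays and 9.07 to 9.62 in control arrays. Among them Rorb read 9.81 in mutant replicate 4 and 9.35 in control replicate 4, against 10.32 to 10.50 in the other 6 arrays. Excitatory neuron markers averaged 8.84 to 8.94 in mutants and 8.93 to 9.06 in controls, over the 5 of 6 listed genes that were analysed, among them Neurod6, the locus that carries Cre in the mutants. The mean difference of mutant minus control was -0.08 (log2) over these 5 and -0.01 over the 4 without Neurod6. The average of each of the 10 marker lists, among them interneuron, astrocyte, oligodendrocyte, microglia, endothelial and meningeal genes, overlapped between the groups. In limma 0 of the 45 markers tested were called, and 5 had an unadjusted p below 0.05, against 4.91% of all genes. Groups did not overlap in 3 of the 45, against 2.75% of all genes: Neurod6 (-0.39 ± 0.09, log2, SE), Tbr1, a transcription factor of excitatory neurons (0.17 ± 0.07), and Gfap, an astrocyte filament (-0.11 ± 0.06). Their lists did not move as 1: differences were positive in 4 of the 5 astrocyte genes and in 2 of the 5 excitatory neuron genes. The part of these markers in the results below was not tested.

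Tpbg, a membrane glycoprotein also named 5T4 that restrains Wnt signalling in zebrafish and shapes granule cell dendrites in the mouse olfactory bulb, was higher in mutants. It read 7.63, 7.56, 7.80 and 7.89 (log2) in mutant replicates 1 to 4, against 6.92, 7.28, 7.00 and 7.09 in control replicates 1 to 4. The lowest mutant array lay above the highest control array, so the groups did not overlap. The means were 7.72 ± 0.15 in mutants and 7.07 ± 0.15 in controls (SD, n = 4 each). The difference of mutant minus control was 0.65 ± 0.09 (log2, SE, 95% interval 0.44 to 0.85), a 1.57-fold higher level. The limma adjusted p over all genes, by which Tpbg had been chosen, was 0.0318. More cells that make Tpbg and more Tpbg RNA per cell cannot be told apart in this tissue, here and for every gene below.

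The Tpbg call was lost in 7 of the 8 fits that left out 1 array, with adjusted p up to 0.161, and held without control replicate 2 (0.0320). It was also lost without the 2 arrays of high Xist, where the difference was 0.61 and the adjusted p 0.484, and with the level of Y-linked genes as a covariate (0.61, adjusted p 0.384). Within the mutants, Tpbg read 7.63 and 7.89 in the arrays of high Xist and 7.56 and 7.80 in the others. Since every mutant array lay above all controls, any split of the mutants does too, and nothing is read from this one.

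**Figure D1:**
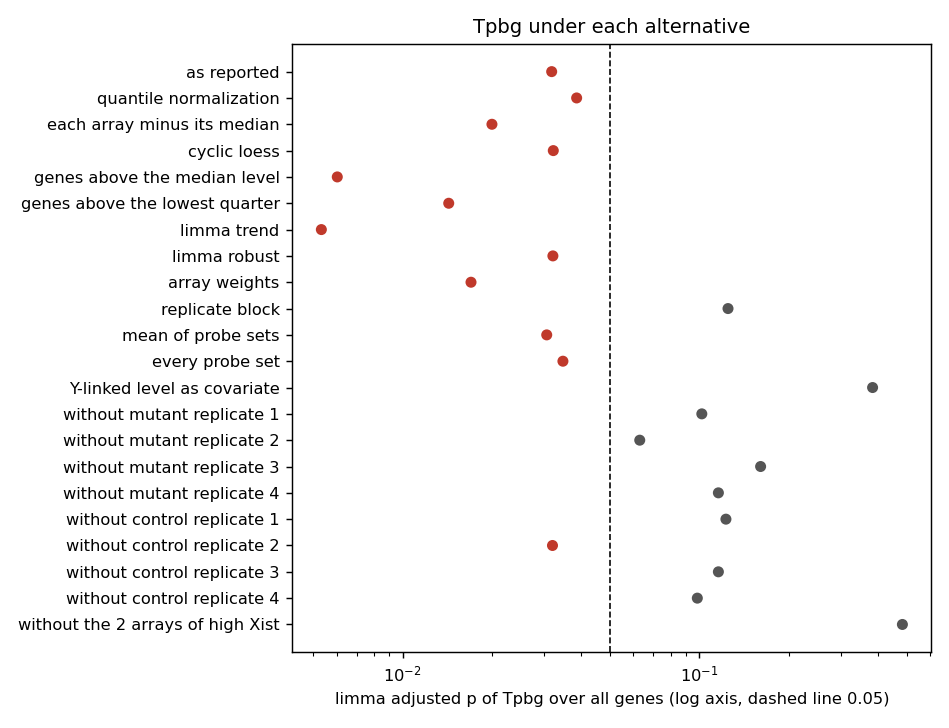
Adjusted p of Tpbg in limma over all genes (x axis, log scale) as reported and under each alternative (y axis), with a dashed line at the threshold of 0.05. Red points pass, and 11 of the 21 alternatives do so, from 0.00532 to 0.484 in all.

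Differences of the other 35 members were small beside that of Tpbg. Of the 36 members 1 was called, Tpbg, in a comparison where 13 of 19938 genes or 0.0652% were called. The member nearest to the threshold outside it was Lrrtm2, at an adjusted p of 0.907. Differences of the 35 lay between -0.29 and 0.14 (log2), 16 positive and 19 negative, beside 8891 positive and 11047 negative over all genes. The median over all 36 was -0.00257, beside -0.00963 over all genes. Of the 35, 27 differed by less than 0.1 and 33 by less than 0.2, and the lowest and highest 95% bounds among them were -0.52 and 0.39. Apart from Tpbg, 4 members had an unadjusted p below 0.05, all 4 lower in mutants, so that 5 of 36 were at that p against 4.91% of all genes. Over all genes 653 at that p were lower in mutants and 326 higher. Groups that did not overlap were seen in 2 members, Tpbg and Lrrtm2, against 2.75% of all genes. Since the members were picked with this contrast known, nothing is read from these shares.

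**Figure D2:**
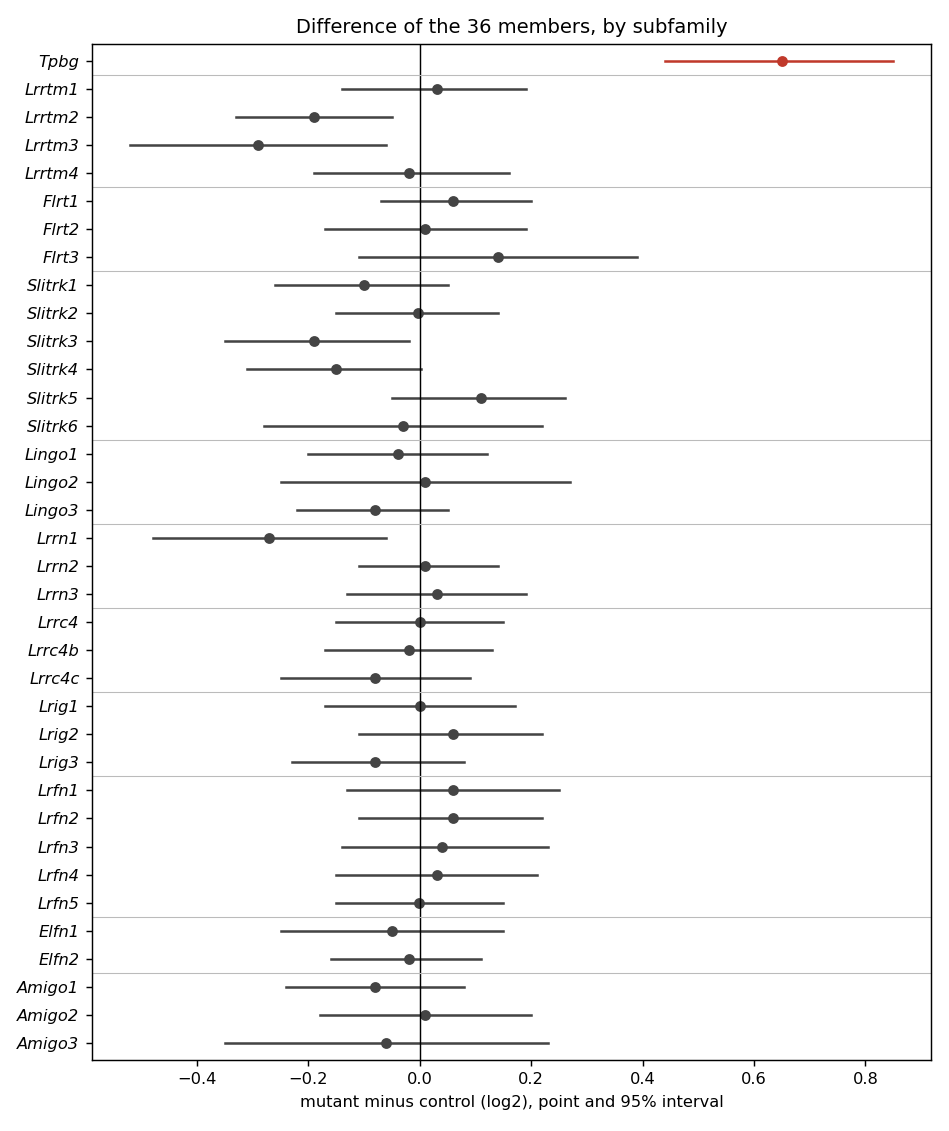
Difference of mutant minus control (x axis, log2) for each of the 36 genes (y axis, grouped by subfamily), as a point with its 95% interval from limma. Tpbg (red) stands at 0.65 with an interval of 0.44 to 0.85, and every other point lies between -0.29 and 0.14.

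Set beside its relatives array by array, Tpbg stood at the top of the 36 genes in each mutant array. Relative to its control mean it was higher by 0.56, 0.49, 0.73 and 0.82 (log2) in mutant replicates 1 to 4. The median of the other 35 relative to theirs was 0.01, -0.01, -0.0036 and -0.07 in the same arrays. In the controls Tpbg lay at -0.15, 0.21, -0.07 and 0.02 and the median of the others at -0.04, 0.07, 0.05 and -0.07. The highest other member in any mutant array was Slitrk6, at 0.31 in mutant replicate 3, so the smallest Tpbg value of the 4 mutants exceeded it. These are the values that led to the choice of Tpbg, read on another scale.

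**Figure D3:**
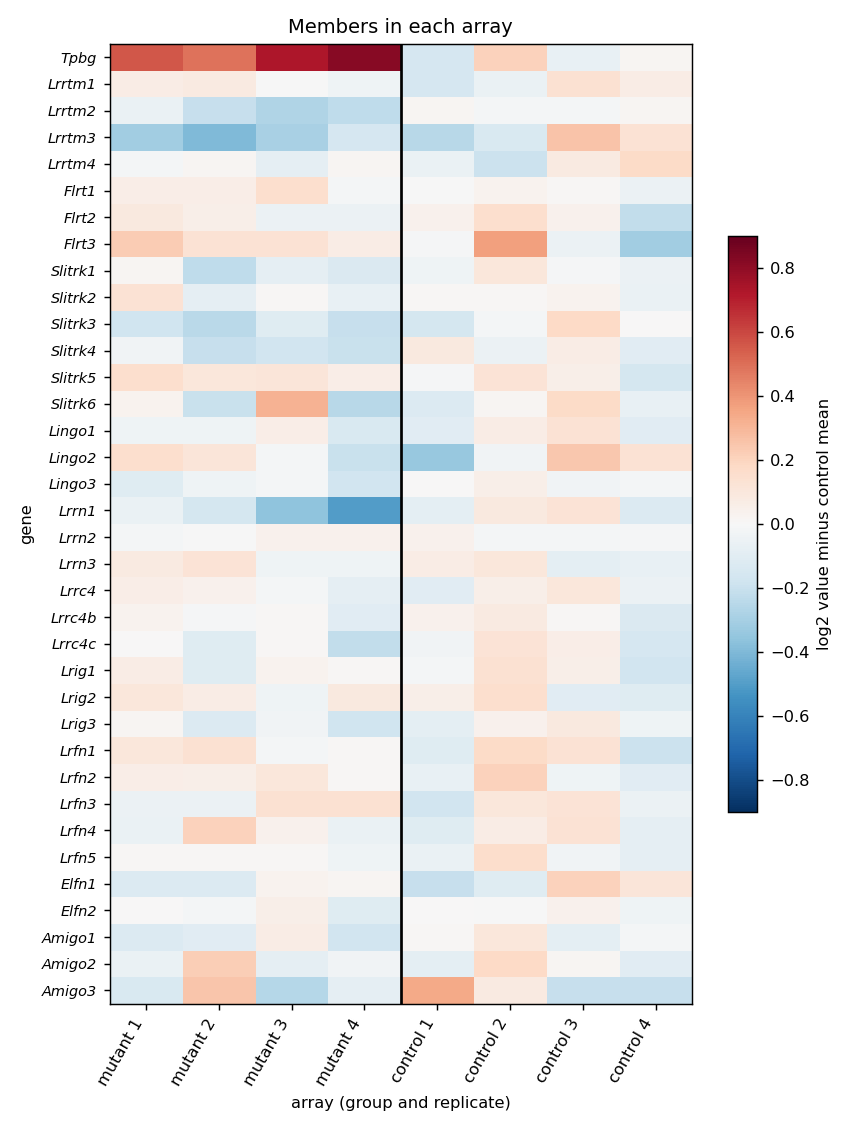
Log2 value minus the control mean of each gene (colour) for the 36 genes (y axis) in 4 mutant and 4 control arrays (x axis). The Tpbg row is red in all 4 mutant arrays, at 0.49 to 0.82, and no other row is as far from 0 in all 4.

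The Lrrtm proteins sit on the postsynaptic side of excitatory synapses and bind neurexins or, for Lrrtm4, heparan sulfate of glypicans. Of the 4 genes 0 passed the threshold in limma, and 2 had an unadjusted p below 0.05, against 4.91% of all genes. Lrrtm2, a neurexin ligand, read 9.41, 9.26, 9.20 and 9.24 (log2) in mutant replicates 1 to 4, against 9.49, 9.45, 9.45 and 9.49 in control replicates 1 to 4. All mutant values lay below all controls, with mutant replicate 1 only just so, and the controls were tightly bunched (SD 0.02). The difference was -0.19 ± 0.06 (SE, n = 4 each, 95% interval -0.33 to -0.05). Lrrtm3, a neurexin ligand too, read 7.73, 7.65, 7.76 and 7.90 in mutants and 7.80, 7.91, 8.31 and 8.17 in controls. Its groups overlapped through mutant replicate 4 and control replicate 1, and the difference was -0.29 ± 0.11 (adjusted p 0.932). Lrrtm1 (0.03 ± 0.08) and Lrrtm4 (-0.02 ± 0.08) differed by less than their SE.

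**Figure D4:**
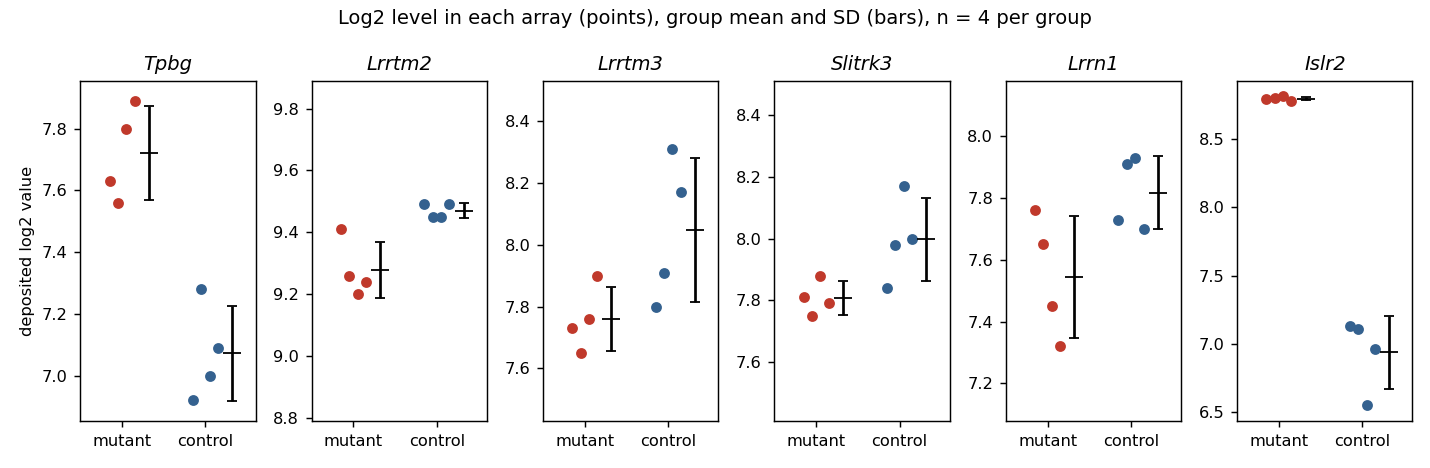
Deposited log2 values (y axis, with a different range in each panel) of Tpbg, of the 4 members with an unadjusted p below 0.05, and of Islr2, in mutant and control arrays (x axis). Points are arrays and bars the group mean and SD (n = 4), and only Tpbg, Lrrtm2 and Islr2 show groups that do not overlap.

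The Slitrk proteins are transmembrane proteins that act in neurite growth and, through presynaptic receptor tyrosine phosphatases, in synapse formation. Of the 6 genes 5 differences were negative and 0 passed the threshold in limma. At an unadjusted p below 0.05 was 1 of them, against 4.91% of all genes. Slitrk3, which acts at inhibitory synapses, read 7.813, 7.753, 7.885 and 7.785 (log2) in mutant replicates 1 to 4 and 7.838, 7.980, 8.173 and 7.999 in control replicates 1 to 4. Only mutant replicate 3, at 7.885, reached above the lowest control. The difference was -0.19 ± 0.08 (SE, adjusted p 0.988). Slitrk4 read 7.66 ± 0.08 in mutants and 7.81 ± 0.09 in controls, a difference of -0.15 ± 0.07, and Slitrk1 -0.10 ± 0.07. Slitrk5 was the 1 member of the family with a positive difference, at 0.11 ± 0.07.

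Slitrk2 and Slitrk4 are on the X chromosome, which bears on the 2 arrays of high Xist. Slitrk2 read 7.55 and 7.74 in those 2 mutants, 7.54 and 7.63 in the other 2 and 7.56 to 7.65 in controls. Slitrk4 read 7.61 and 7.77 in those 2 mutants, 7.60 and 7.64 in the other 2 and 7.70 to 7.90 in controls. Neither gene set the arrays of high Xist apart from the other mutants. Slitrk6 had the dimmest probe set of the family, at 2.57 ± 0.25 in mutants and 2.60 ± 0.13 in controls, and whether it was detected is not known from these files.

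The Lrrn proteins are neuronal transmembrane proteins with leucine-rich repeats and an immunoglobulin domain. Lrrn1 read 7.76, 7.65, 7.45 and 7.32 (log2) in mutant replicates 1 to 4 and 7.73, 7.91, 7.93 and 7.70 in control replicates 1 to 4. Mutant replicates 3 and 4 were the low ones, while mutant replicate 1 lay within the controls. The difference was -0.27 ± 0.10 (SE, 95% interval -0.48 to -0.06, adjusted p 0.932 in limma). The other genes of the family were nearly flat, Lrrn2 at 0.01 ± 0.06 with all 8 arrays between 8.19 and 8.26, and Lrrn3 at 0.03 ± 0.07. Lrrn1 is on chromosome 6, where Neurod6 also lies. The other members on that chromosome, Lrrtm1, Lrrtm4, Lrrc4 and Lrig1, differed by -0.02 to 0.03. Positions along it were not compared, and whether closeness to the altered Nex copy played a part was not tested.

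The Flrt proteins bind latrophilins and Unc5 receptors and steer the migration of cortical neurons. All 3 differences were positive and none passed the threshold in limma, with 0 at an unadjusted p below 0.05, against 4.91% of all genes. Flrt3 read 6.32, 6.23, 6.23 and 6.17 in mutants and 6.08, 6.47, 6.04 and 5.79 in controls, so the mutant values lay inside the control range. Its difference was 0.14 ± 0.11 (SE). Flrt1 (0.06 ± 0.06) and Flrt2 (0.01 ± 0.08) were closer to 0.

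The Lingo proteins have their best-known member in Lingo1, a partner of the Nogo receptor that restrains axon growth and myelination. Lingo1 read 7.81 ± 0.08 in mutants and 7.85 ± 0.12 in controls (SD, n = 4 each), and Lingo3 7.25 ± 0.07 in mutants and 7.33 ± 0.04 in controls. Lingo2 has 2 probe sets. The brighter gave 6.24, 6.20, 6.08 and 5.89 in mutants and 5.75, 6.07, 6.33 and 6.23 in controls (0.01 ± 0.12, SE), and the dimmer 5.91, 5.94, 5.85 and 5.85 in mutants and 5.79, 5.84, 6.03 and 6.08 in controls (-0.05 ± 0.08). Slitrk2, a synaptic adhesion protein, also has 2. Its brighter gave 7.74, 7.54, 7.63 and 7.55 in mutants and 7.63, 7.63, 7.65 and 7.56 in controls (-0.0031 ± 0.07). Its dimmer gave 7.00, 6.78, 6.85 and 6.65 in mutants and 6.63, 7.05, 6.73 and 6.75 in controls (0.03 ± 0.10). In both genes the probe sets gave differences smaller than their SE.

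The Lrrc4 genes encode the netrin-G ligands, of which Lrrc4c binds netrin-G1, Lrrc4 netrin-G2 and Lrrc4b the phosphatase LAR. The differences were 0.00071 for Lrrc4 (7.66 ± 0.06 in mutants and 7.66 ± 0.09 in controls), -0.02 ± 0.07 for Lrrc4b and -0.08 ± 0.08 for Lrrc4c (SE, n = 4 each). The Lrfn proteins, also called SALMs, are synaptic adhesion proteins, several of which bind the scaffold PSD-95. Of the 5 genes 4 differences were positive, between 0.03 for Lrfn4 and 0.06 for Lrfn1 and Lrfn2, and Lrfn5 was at -0.002 ± 0.07. Intervals of this family were widest for Lrfn1, from -0.13 to 0.25.

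Elfn1 recruits the glutamate receptor mGluR7 to synapses onto some interneurons, and read 6.19 ± 0.09 in mutants and 6.24 ± 0.19 in controls. Elfn2, its paralog, read 7.66 ± 0.06 in mutants and 7.69 ± 0.04 in controls. Amigo1, an auxiliary subunit of the potassium channel Kv2.1, had a difference of -0.08 ± 0.07 (SE). Amigo2 and Amigo3, adhesion proteins of the same family, had differences of 0.01 ± 0.09 and -0.06 ± 0.13. Lrig1, which dampens signalling by receptors of the EGF family, read 6.58 ± 0.08 in mutants and 6.58 ± 0.13 in controls, while Lrig2 was at 0.06 ± 0.07 and Lrig3 at -0.08 ± 0.07. The 3 genes Slitrk6, Lrig3 and Amigo3 had signals below the median of all genes, and a small difference there cannot be told from an absent transcript.

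Spread between pups was small in most members. Within the mutants the SD lay between 0.03 and 0.25 and within the controls between 0.02 and 0.28, and it was larger in controls for 22 of the 36 genes, larger in mutants for 12 and equal to 2 decimals for 2. Flrt3, Amigo3, Lingo2 and Lrrtm3 had the widest controls, and Slitrk6 and Amigo3 the widest mutants. Control replicates 1 to 4 lay above the control mean in 12, 25, 24 and 7 of the 35 members other than Tpbg. The Tpbg value of control replicate 2, 7.28, was the highest of the controls. In control replicate 3 Tpbg lay below its control mean, at -0.07 (log2), and in control replicate 4 just above, at 0.02.

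Listed binding partners of these proteins were examined next, some of them on a facing cell and others in the same cell. Of 51 listed genes 49 were analysed, and 0 passed the threshold in limma in either direction, against 0.0652% of all genes. At an unadjusted p below 0.05 there was 1, against 4.91% of all genes. Their differences lay between -0.21 and 0.14 and the median was -0.00759. Omg, a myelin-associated ligand of the Nogo receptor, had the smallest p and read 7.04, 7.38, 7.34 and 7.23 in mutants and 7.42, 7.40, 7.66 and 7.34 in controls (-0.21 ± 0.09, SE). Mag, another ligand of that receptor, was at -0.14 ± 0.08 and Adgrl3, a latrophilin bound by Flrt proteins, at 0.13 ± 0.07. Groups did not overlap in 1 of the 49, against 2.75% of all genes, and nothing is read from this. That partner was Grm7, the receptor that Elfn1 recruits, with 9.06 to 9.13 in mutants and 8.99 to 9.04 in controls (0.07 ± 0.06). All 3 latrophilins had positive differences (0.07 to 0.13), as had both neurexins tested (0.08 and 0.09), and all 4 Dlg scaffolds negative ones (-0.07 to -0.0047). These families were picked for mention after their values were seen. Every other partner family with several genes had differences of both signs, and nothing is read from the shared signs. Lrp6, the Wnt co-receptor on which Tpbg acts in zebrafish, read 7.32 ± 0.07 in mutants and 7.20 ± 0.13 in controls, and was chosen for mention after its value was seen.

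Other surface and secreted proteins with leucine-rich repeats, 40 with a probe set out of 42 listed, were set beside the members. Rtn4r, Rtn4rl1, Rtn4rl2, Omg and Ntrk2 are on this list and on the partner list, so the lists are not separate. In limma 1 of these genes rose and 0 fell, against 0.0652% called among all genes. That gene was Islr2, a transmembrane protein of growing axons, at 8.79, 8.80, 8.81 and 8.78 in mutant replicates 1 to 4 and 7.13, 7.11, 6.55 and 6.96 in controls, and it was on the list with its call already known. The mutant values lay within 0.03 of each other and far above every control. The difference was 1.86 ± 0.11 (log2, SE) or 3.63-fold (adjusted p 1.08e-05), against 0.65 for Tpbg. Tpbgl, the closest relative of Tpbg by name, read 5.96 ± 0.09 in mutants and 5.99 ± 0.09 in controls. Islr, the neighbour of Islr2 in name, was at -0.28 ± 0.09 and the channel subunit Lrrc8e at -0.30 ± 0.09, with adjusted p of 0.907 and 0.815. The median of the list was -0.0253, with 15 differences positive and 25 negative.

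Tpbg and Islr2 are both on chromosome 9. So are Islr, at -0.28 (log2), and the members Lingo1 and Amigo3, at -0.04 and -0.06. Whether the shared chromosome played a part was not tested.

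**Figure D5:**
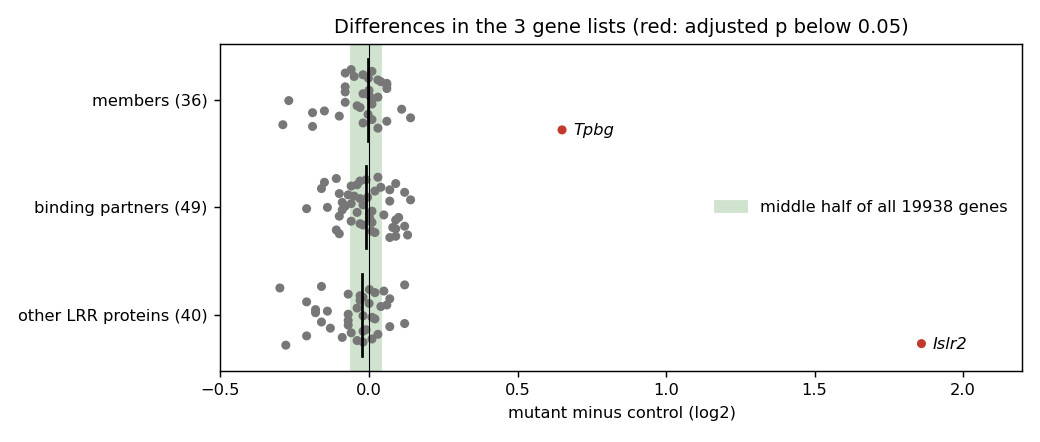
Difference of mutant minus control (x axis, log2) for the 36 members, 49 binding partners and 40 other leucine-rich repeat (LRR) proteins (y axis), each point a gene and each black tick a list's median. Genes on both the partner and the other list are drawn in each. The green band is the interquartile range of all genes, -0.06 to 0.04, and the red points Tpbg and Islr2 are the genes past the threshold.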

How the data were processed

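Per the labels, RNA of 8 pups was measured on Affymetrix Mouse Gene 1.0 ST arrays and processed in BRB-ArrayTools. The values the authors deposited are log2 levels of 35556 probe sets, from 0.74 to 13.63. The sources used here do not give the background correction, normalization, summarization or genome build, and the log2 scale was read from the values. Platform annotation named 1 gene for 21789 probe sets and several for 1621; symbols followed the GRCm38.p6 table by Entrez identifier (21698 matched). Mutant and control arrays were compared over 19938 genes with limma 3.58.1 in R 4.3.3 (lmFit, eBayes, genotype as the only term, two-sided, Benjamini-Hochberg over all genes, threshold 0.05, no filter). SE and 95% intervals are moderated. The fit was tested on simulated data. Precision is limited by 4 arrays a group.

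All 36 members are described, by subfamily. Tpbg, members with an unadjusted p below 0.05 or groups that do not overlap, and members with several probe sets are given in every array. Of the partner and the other leucine-rich repeat lists, called genes, genes whose groups do not overlap and the 3 of smallest p are named. Tpbgl is named besides, as the closest relative of Tpbg by name. Lrp6, the latrophilins, the neurexins and the Dlg scaffolds are also named, and were picked after their values were seen. Markers are given as lists, and those named were chosen after their values were seen. Members, lists and alternatives were chosen with earlier results of these data known. The alternatives were quantile, median and cyclic loess scaling, 2 filters on dim genes, a trend or robust prior, weighted arrays, a block for the replicate number, other handling of probe sets, a Y-linked covariate, a threshold of 0.1 and leaving out arrays. A few genes of the marker, partner and other lists were not analysed here.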

Additional observations from a re-analysis of the deposited data

Results flagged for a closer look

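Among the 36 members and Islr2, 74 groups of 4 arrays were examined for an array far from the rest of its group, and 3 had one, all in mutants; chance marks about 1 in 20 groups. Lrig2 read 6.661 (log2) in mutant replicate 3, against 6.777 to 6.799 in the other mutants. Lrfn5 read 8.001 in mutant replicate 4, against 8.056 to 8.060 in the other mutants. Amigo2 read 5.886 in mutant replicate 2, against 5.583 to 5.632 in the other mutants. None of the 3 genes passed the threshold between genotypes.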

How the results depend on the processing

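The difference of Tpbg kept its sign in all 21 alternatives, and the call was kept in 11. Every mutant array lay above all controls, so leaving out arrays could not change the sign of Tpbg. Nothing is read from the kept sign. Tpbg was not called with the replicate block (0.65, adjusted p 0.125, members called 0), the Y-linked covariate (0.61, members called 0) or without the 2 arrays of high Xist, an alternative chosen after seeing the data (0.61, members called 0). Leaving out 1 array gave Tpbg differences of 0.59 to 0.72 and 0 to 1 members called. Genes called over all genes numbered 13 as reported, 5 with the block, 4 with the covariate, 2 without the high-Xist arrays and 3 to 13 without 1 array. The replicate numbers are not said to pair pups: same-numbered mutant and control arrays correlated at -0.01 to 0.16 in their deviations, and 2 of 4 mutants correlated best with their own number. Partner genes called stayed at 0 and other leucine-rich repeat genes at 1 (Islr2) in all alternatives run. The median of the members lay between -0.0245 and 0.0109, changing sign by less than the spread between arrays. Lrrtm2, Lrrtm3, Slitrk3 and Lrrn1 kept negative differences in all 21 alternatives and were called in 0, with adjusted p of 0.690 or more. These 4 were followed for their low unadjusted p in these same arrays, so their kept signs support nothing.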
